A study of Mus musculus with 30 samples.

Results

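The comparison was between 16 h and 8 h of tamoxifen in naive mouse embryonic stem cells that lacked Kmt2c, carried floxed Kmt2d alleles and had no GRHL2-ERT transgene. The 6 libraries with the label Kmt2cKO; Kmtd fl/fl were taken, 3 at each time, out of 30 in the series. The cells of all 30 libraries had a C57BL/6J x 129 background, and their medium held serum, LIF and 2 inhibitors, PD0325901 against MEK and CHIR99021 against GSK3. QuantSeq, the method used, sequences 1 short tag from the 3' part of a polyadenylated RNA. The remaining libraries came from cells with GRHL2-ERT, a fusion of the epithelial transcription factor GRHL2 with a hormone-binding domain that tamoxifen activates. One such line was Kmt2cKO; Kmtd fl/fl;GRHL2-ERT and the other Kmt2cKO; Kmt2dKO;GRHL2-ERT, here the double KO, each given ethanol or tamoxifen for 8 h or 16 h. The design text says that clones of the transgenic lines were selected. No ethanol or untreated library of the transgene-free line is among the samples used here, so what tamoxifen itself changed could not be measured. The labels name no preparation batch, and time under tamoxifen, time in culture and library preparation cannot be told apart.

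Naive embryonic stem cells hold the transcription factor network of the early epiblast, with POU5F1, SOX2, NANOG and the KLF and ESRRB factors at its core. LIF acts through STAT3, GSK3 inhibition stabilises beta-catenin, and MEK inhibition blocks the ERK signal that starts differentiation, and together they hold the cells in that state. A small share of such cells passes at any time through a state with genes of the cleavage embryo, including the Zscan4 cluster. KMT2C and KMT2D are methyltransferases of histone H3 lysine 4 at enhancers and act in complexes with shared subunits. Tamoxifen is a ligand of the estrogen receptor and at higher doses also binds enzymes of sterol synthesis.

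A pair of near-identical genes is described first, since its copies had opposite directions. Rps27, which encodes a protein of the small ribosomal subunit, lies on chromosome 3, and Rps27rt, a single-exon copy, lies on chromosome 9. Their coding sequences, read from GENCODE M21 transcripts on the minus strand of GRCm38, are shown because reads from such copies cannot be assigned with certainty. Capitals mark the start and stop codons.
Rps27 (chr3:90212522-90213651): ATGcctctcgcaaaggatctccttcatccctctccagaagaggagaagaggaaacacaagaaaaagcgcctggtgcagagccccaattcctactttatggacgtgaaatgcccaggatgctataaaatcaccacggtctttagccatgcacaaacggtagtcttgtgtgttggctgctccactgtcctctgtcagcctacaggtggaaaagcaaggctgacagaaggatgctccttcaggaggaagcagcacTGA
Rps27rt (chr9:114982366-114982739): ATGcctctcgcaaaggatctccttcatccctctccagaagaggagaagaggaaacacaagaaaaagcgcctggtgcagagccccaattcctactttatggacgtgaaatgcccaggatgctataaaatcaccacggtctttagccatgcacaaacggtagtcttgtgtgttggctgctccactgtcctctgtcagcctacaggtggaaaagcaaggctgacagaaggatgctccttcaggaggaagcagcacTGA
The coding sequences were 255 bases each and differed at 0 positions. Rps27rt had 1697, 1538 and 1733 CPM (tag counts scaled to the same library total, 1 M) in the 3 libraries at 8 h and was listed at 0 in all 3 at 16 h. Rps27 had 546, 427 and 438 CPM at 8 h and 3432, 3120 and 3174 CPM at 16 h. The groups did not overlap for either gene, and the directions were opposite. Summed over the pair, the level went from 2127 ± 144 CPM (SD, n = 3) to 3242 ± 167 CPM, a ratio of 1.52. The separate changes of the pair, and the count of either gene as changed, are therefore uncertain.

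Depth in the 6 libraries, worked out from the steps between low values, was 13.2 to 18.9 M reads over the genes of the table. On the principal components of all 30 libraries, the second component (28.7% of variance) separated the times, at 26.9, 35.5 and 35.8 for the 8 h libraries and -15.1, -24.5 and -25.0 for the 16 h libraries. Replicate 1 at 16 h stood apart from replicates 2 and 3 on that axis. It listed 229 genes at 0, against 174 and 128. Rn45s, the ribosomal RNA precursor, took 3.24%, 3.74% and 3.56% of reads at 8 h and 2.58%, 2.42% and 2.01% at 16 h. The part of these differences in the results was not tested. The mean correlation of a library with the others of its group was 0.984 to 0.988. The labels number the replicates without calling them separate cultures, so a p here covers the spread among these libraries, which may be technical.

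The targeted genes were read first. Kmt2c tags were 18, 15.8 and 13.1 CPM at 8 h and 9.47, 12.9 and 11.1 CPM at 16 h. The labels do not give the deleted part of Kmt2c, so a 3' tag from outside it checks nothing about the knockout. The difference was -0.45 ± 0.16 on the log2 scale (SE; limma adjusted p = 0.028), and it did not pass with median-of-ratios scaling (-0.29; adjusted p = 0.15). It was 0.03 when trends with transcript GC and length were removed, so the direction is uncertain. Kmt2d, whose alleles are labelled as floxed, had 8.76, 13.6 and 7.70 CPM at 8 h and 6.13, 6.89 and 7.71 CPM at 16 h, with overlapping groups. Grhl2 stayed between 1.40 and 3.55 CPM in the 6 libraries, with no transgene present. Esr1, the estrogen receptor gene, had 3.85, 3.15 and 3.18 CPM at 8 h and 7.41, 7.87 and 5.05 CPM at 16 h, and did not pass the test (0.81 ± 0.47; limma adjusted p = 0.19). It did pass in the fit of the 6 libraries alone (SE 0.23; adjusted p = 0.0064) and without the double-KO tamoxifen 8 h libraries (adjusted p = 0.022).

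Across the 12414 genes tested, 1352 rose from 8 h to 16 h (10.9%) and 3189 fell (25.7%), by limma on log2(CPM + 1) with Benjamini-Hochberg adjusted p under 0.05. Of these, 505 rose and 581 fell by at least 1 on the log2 scale, a balance that turned over with median-of-ratios scaling (743 and 343) and with GC and length trends removed (519 and 268). For 6501 genes (52.4%) all 3 libraries of one time lay above all 3 of the other, so a gene whose groups do not overlap is common here. CPM are shares of a library's total, and the median change of all genes was -0.15. With median-of-ratios scaling the median was -0.01, and 2163 genes rose and 2009 fell, so that increases made up 51.9% of the calls in place of 29.8%. The changes below are therefore set beside the median of all genes, and list counts are given under both scalings where they differ. With replicate 1 at 16 h left out, 1204 genes rose and 2688 fell.

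**Figure D1:**
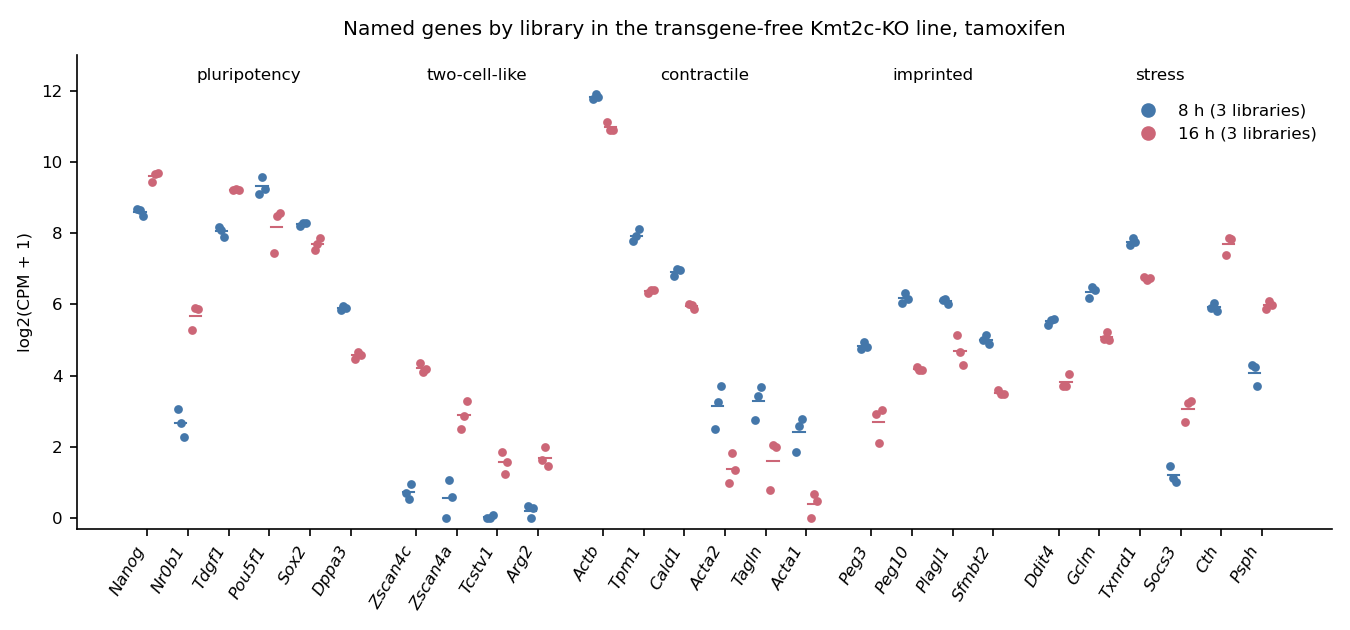
Levels of 26 genes in each library, as log2(CPM + 1), with 3 points and a line at their mean for 8 h (blue) and 16 h (red), in the transgene-free Kmt2c-KO line under tamoxifen. Every gene shown had 16 h libraries all above or all below the 8 h libraries, and Pou5f1 in replicate 1 at 16 h (175 CPM) lay far under the other 16 h libraries.

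Genes of the naive network were called in both directions, as were all genes tested, of which 10.9% rose and 25.7% fell. Of 22 measured members, 5 rose, 5 fell and 12 did not pass, with a median of 0.06 against -0.15 for all genes (9 rose and 5 fell with median-of-ratios scaling). The share that fell, 5 of 22, was close to that of all genes. Nanog, a core factor of the network, had 408, 405 and 357 CPM at 8 h and 692, 817 and 834 CPM at 16 h. It rose by 1.00 ± 0.25 on the log2 scale (SE; limma adjusted p = 0.0040). Pou5f1, the core factor that forms a pair with SOX2 on DNA, had 553, 765 and 608 CPM at 8 h and 175, 361 and 381 CPM at 16 h. It fell by 1.14 (SE 0.30; limma adjusted p = 0.0052), and by 0.78 with replicate 1 at 16 h left out (adjusted p = 0.045). In the fit of the 6 libraries alone Pou5f1 did not pass (adjusted p = 0.073).

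Nr0b1, a nuclear receptor that binds POU5F1, changed most among these genes. It had 7.28, 5.32 and 3.88 CPM at 8 h and 37.8, 59.2 and 57.5 CPM at 16 h, a log2 difference of 3.02. Tdgf1, a co-receptor of Nodal, had 290, 270 and 239 CPM at 8 h and 589, 608 and 594 CPM at 16 h. Both genes were higher in every 16 h library. Tcl1, a co-activator of AKT, had 15.4, 15.8 and 15.2 CPM at 8 h and 26.1, 27.4 and 29.5 CPM at 16 h.

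Dppa3, a maternal-effect gene that limits DNA methylation, was among those that fell. It had 56.6, 61.1 and 59.0 CPM at 8 h and 21, 24.3 and 23.0 CPM at 16 h, a log2 difference of -1.33 ± 0.23 (SE; limma adjusted p = 5.5e-05). Nr5a2, an orphan nuclear receptor that can drive Pou5f1, had 74.8, 82.4 and 76.3 CPM at 8 h and 48.6, 35.7 and 40.9 CPM at 16 h. Sox2 fell by 0.56 and Klf2 by 0.53, and in both every 16 h library was lower. The levels of Klf4, Klf5, Esrrb, Tfcp2l1 and Tbx3 overlapped between the times, with log2 differences of -0.07, -0.06, 0.11, -0.11 and 0.04. Zfp42, also known as Rex1, had 710, 727 and 787 CPM at 8 h and 834, 941 and 1044 CPM at 16 h, and missed the threshold (adjusted p = 0.064).

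Of 18 measured genes of cells that leave the naive state, 8 fell and 2 rose, with a median of -0.22 (6 and 3 with median-of-ratios scaling). With GC and length trends removed 5 fell and 4 rose, with a median of 0.03. Otx2, a factor of the formative state, had 8.55, 11.2 and 9.15 CPM at 8 h and 4.62, 3.78 and 4.05 CPM at 16 h. Dnmt3b, a de novo DNA methyltransferase, had 66.2, 66.8 and 70.3 CPM at 8 h and 39.2, 30.8 and 33.7 CPM at 16 h. Neither gene's groups overlapped. Fst, the activin antagonist follistatin, rose instead, from 1.37, 1.12 and 0.59 CPM to 5.28, 16.2 and 16.4 CPM. Among 12 enzymes of DNA methylation, 7 fell and 0 rose (3 fell with median-of-ratios scaling), beside falls in 25.7% of all genes. The median of the 12 was -0.37. It was 0.09, and 3 fell, with GC and length trends removed, so the direction of the list is uncertain. Tet1, a dioxygenase that oxidises methylcytosine, had 176, 201 and 195 CPM at 8 h and 116, 104 and 124 CPM at 16 h. Dnmt3a fell by 0.33 (SE 0.10; limma adjusted p = 0.011), did not pass with median-of-ratios scaling, and had a difference of 0.18 when GC and length trends were removed.

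The measured genes of the cleavage-embryo-like state were higher at 16 h. Only 6 of the 20 listed genes were measured, and all 6 of them rose, with a median of 1.51 against -0.15 for all genes. They were Zscan4a, Zscan4c, Zscan4d, Tcstv1, Eif1a and Arg2, and 5 rose without replicate 2 or without replicate 3 at 16 h. Their sum was 191 to 240 CPM at 8 h and 326 to 347 CPM at 16 h. Most of that sum came from members whose levels are not given here. A measured member had to reach 1 CPM in some group of the series, so the low members are not among those 6. Zscan4c, Zscan4a, Tcstv1 and Arg2 had means under 1 CPM at 8 h. The count of 6 and the median are therefore no support for the list. Zscan4c, a telomere-associated zinc finger gene on chromosome 7 (mm10, 11005745 to 11010547, plus strand), had 0.63, 0.45 and 0.95 CPM at 8 h and 19.3, 16.2 and 17.3 CPM at 16 h. The difference was 3.48 ± 0.22 on the log2(CPM + 1) scale (SE; limma adjusted p = 1.2e-11), which understates changes of low genes. Zscan4a had 0, 1.11 and 0.51 CPM at 8 h and 4.69, 6.33 and 8.84 CPM at 16 h. The 2 genes are near-identical members of 1 cluster: 62.0% of the 50-base windows near the 3' ends of Zscan4c transcripts, and 71.8% of those of Zscan4a, also occur in transcripts of other genes. The split of tags between them is uncertain.

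Tcstv1 and Arg2, which had little shared sequence, were low at 8 h. Such genes are in the table through groups where they are high, so their direction is no support for the list. Tcstv1, which is active in the same state, had 0, 0 and 0.05 CPM at 8 h and 2.65, 1.36 and 1.98 CPM at 16 h, and 9.86% of its windows were shared. Arg2, an arginase, had 0.26, 0 and 0.22 CPM at 8 h and 2.13, 2.95 and 1.73 CPM at 16 h, with 0% shared. The 8 h values lay at or near the level of 3 reads, 0.172 CPM on average, and every 16 h library lay well above it. Obox6, an oocyte homeobox gene outside the list, had 4.49, 3.22 and 2.26 CPM at 8 h and 47.3, 48.9 and 48.2 CPM at 16 h (3.54 ± 0.28 SE; limma adjusted p = 4.8e-10). In whole-culture RNA, more cells in a state and more RNA per cell cannot be told apart.

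Germ cell genes that promoter methylation silences in somatic cells included 5 that rose and 1 that fell of 26 measured (8 and 0 with median-of-ratios scaling). Dazl, an RNA-binding protein of germ cells, had 8.97, 11.2 and 6.19 CPM at 8 h and 25.9, 26.2 and 25.7 CPM at 16 h. Stra8, a gatekeeper of meiosis, had 1.53, 1.38 and 0.97 CPM at 8 h and 6.07, 6.28 and 5.98 CPM at 16 h. In both genes the 16 h libraries lay close together and above all 8 h libraries. Rpl10l, a testis copy of a ribosomal protein gene, rose by 1.28 (SE 0.15).

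Contractile and actin-binding genes were lower at 16 h. Of 20 measured members 11 fell, 0 rose and 9 did not pass, with a median of -0.65 against -0.15 for all genes (10 fell and 2 rose with median-of-ratios scaling, 9 and 0 with GC and length trends removed). Tpm1, an actin-stabilising tropomyosin on chromosome 9 (mm10, 67022590 to 67049406, minus strand), had 219, 240 and 277 CPM at 8 h and 79.0, 83.8 and 84.1 CPM at 16 h. It fell by 1.56 on the log2 scale (SE 0.098; limma adjusted p = 1.1e-11). Acta1, skeletal muscle actin, had 2.64, 4.99 and 5.87 CPM at 8 h and 0, 0.61 and 0.40 CPM at 16 h. Tagln, a smooth muscle actin-binding protein, had 5.70, 9.85 and 11.8 CPM at 8 h and 0.73, 3.18 and 2.99 CPM at 16 h. No 16 h library reached an 8 h library in any of the 3 genes.

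Actb, cytoplasmic actin, fell at a high level, from 3505, 3870 and 3630 CPM to 2222, 1910 and 1917 CPM (-0.87 ± 0.15 SE; limma adjusted p = 9.1e-05). The filament crosslinker Flna fell by 0.92 and the actin-binding Cald1 by 0.97. Actg1, the other cytoplasmic actin, overlapped, with 1837, 1520 and 1589 CPM at 8 h and 1571, 1252 and 1221 CPM at 16 h. Its log2 difference was -0.29 (limma adjusted p = 0.57). Summed over the 20 members, the level was 6148 to 6255 CPM at 8 h and 3666 to 4319 CPM at 16 h, with Actb the main part.

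SRF, the factor that binds many of these genes with its MRTF partners, recognises the CArG box. The 250 bases before the annotated start were read from RefSeq (GRCm38.p6) for 18 of the 20 members and searched for exact CArG boxes, which read alike on both strands. A box was found in 7 of the 18, against 1.62% of 27025 genes in the table. It was found in 1 of the 9 matched members that fell and in 6 of the 9 that did not pass. The members without a sequence, Actb and Tagln, both fell, so the count on that side is incomplete. The sequences of Acta1, which fell, and of Actg1 and Srf, which did not pass, show boxes in genes on both sides of that split. Capitals mark the boxes, and the last base precedes the start.
Acta1 (chr8:123894776-123895025, minus strand): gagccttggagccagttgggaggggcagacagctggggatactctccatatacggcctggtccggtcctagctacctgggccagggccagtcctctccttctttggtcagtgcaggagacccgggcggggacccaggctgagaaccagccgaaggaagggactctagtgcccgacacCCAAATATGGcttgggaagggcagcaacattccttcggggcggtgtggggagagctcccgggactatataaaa
Actg1 (chr11:120348496-120348745, minus strand): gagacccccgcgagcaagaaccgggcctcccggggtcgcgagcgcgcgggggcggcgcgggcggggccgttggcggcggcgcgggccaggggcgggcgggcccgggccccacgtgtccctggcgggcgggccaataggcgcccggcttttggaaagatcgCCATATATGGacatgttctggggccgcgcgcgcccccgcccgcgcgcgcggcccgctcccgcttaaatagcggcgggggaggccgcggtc
Srf (chr17:46556163-46556412, minus strand): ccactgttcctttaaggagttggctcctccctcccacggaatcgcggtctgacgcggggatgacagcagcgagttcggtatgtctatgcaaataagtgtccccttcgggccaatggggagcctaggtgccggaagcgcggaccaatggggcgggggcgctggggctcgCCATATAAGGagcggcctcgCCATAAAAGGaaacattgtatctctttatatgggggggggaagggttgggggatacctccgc
The box of Acta1 begins 73 bases before the start, that of Actg1 90 bases before it, and those of Srf 82 and 62 bases before it. Srf itself had 28.7, 27.3 and 32.2 CPM at 8 h and 21.2, 21.9 and 27.5 CPM at 16 h, with overlapping groups. A match is a description of these letters only, and the absence of an exact box in a window says nothing about binding elsewhere.

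**Figure D2:**
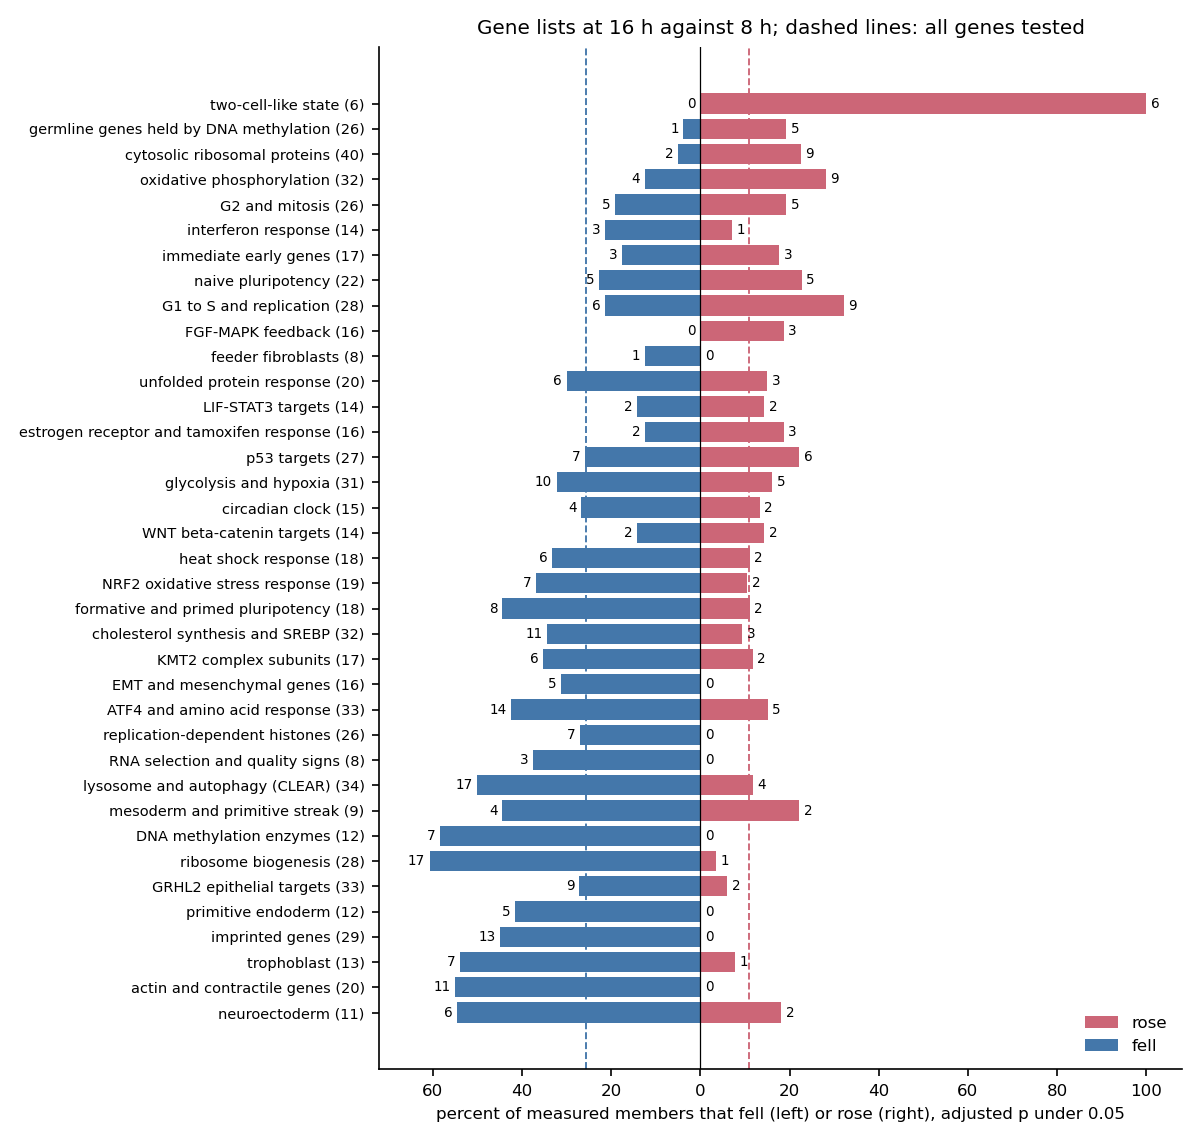
Share of the measured members of each gene list (their number in parentheses) that rose (red, to the right) or fell (blue, to the left) from 8 h to 16 h, with the number beside each bar; dashed lines mark 10.9% and 25.7%, the shares of all genes tested. Lists are ordered by the median log2 change, from 1.51 at the top to -0.81 at the bottom.

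Genes expressed from 1 parental allele fell without a single call upward. Of 29 measured members 13 fell and 16 did not pass, with a median of -0.48 (12 fell and 5 rose with median-of-ratios scaling, and also 12 and 5 with GC and length trends removed). Peg3, a paternally expressed zinc finger gene on chromosome 7 (mm10, 6703892 to 6730431, minus strand), had 26.1, 29.8 and 26.9 CPM at 8 h and 6.62, 3.33 and 7.24 CPM at 16 h. Peg10, a retrotransposon-derived gene needed for the placenta, had 65.0, 78.6 and 70.7 CPM at 8 h and 17.9, 17 and 16.9 CPM at 16 h. The log2 differences were -2.14 ± 0.18 for Peg3 and -1.99 ± 0.16 for Peg10 (SE; limma adjusted p = 1.2e-09 and 5.3e-10). The maternally expressed H19 fell as well, from 64.1, 90.5 and 81.9 CPM to 41.9, 42.1 and 42.3 CPM. Its neighbour Igf2, a paternally expressed growth factor, fell from 56.0, 75.0 and 52.3 CPM to 23.3, 21.6 and 24.9 CPM. Genes expressed from either parent's allele were thus among those that fell. Snrpn was listed at 0 in replicate 1 at 16 h and had 90.6 and 83.5 CPM in the others, and its groups overlapped.

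Markers of trophoblast, the lineage of the placenta, were lower. Of 13 measured, 7 fell and 1 rose, with a median of -0.62 (6 and 1 with median-of-ratios scaling). Tfap2c, a transcription factor of trophoblast and germ cells that naive stem cells also express, had 77.7, 90.7 and 73.1 CPM at 8 h and 16.8, 18.4 and 20.7 CPM at 16 h. Krt18, a keratin of simple epithelia, had 52.8, 67.5 and 65.6 CPM at 8 h and 17.4, 27.4 and 20.3 CPM at 16 h. Gata3, a trophoblast factor, had 7.49, 9.99 and 9.53 CPM at 8 h and 2.07, 3.10 and 3.72 CPM at 16 h. The groups of all 3 genes stood clear of each other. Eomes, which marks trophoblast and mesoderm precursors, rose by 0.61, but did not pass without replicate 1 at 16 h, replicate 2 at 8 h or replicate 3 at 8 h. The sum of the 13 was 294 to 362 CPM at 8 h and 139 to 146 CPM at 16 h.

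Markers of other lineages were read as well. Those of mesoderm and primitive streak had 4 that fell and 2 that rose of 9. With median-of-ratios scaling, and also with GC and length trends removed, 1 fell and 2 rose. Early neural genes had 6 that fell and 2 that rose of 11, with sums of 118 to 122 CPM at 8 h and 64 to 75.3 CPM at 16 h. Sox21, a neural factor, had 3.85, 6.70 and 3.18 CPM at 8 h and 0.12, 1.29 and 1.20 CPM at 16 h. Sox1 rose by 0.59 and Gbx2 by 0.69, against the direction of the others. Neither call was stable: Sox1 did not pass with the replicate block or in the fit of the 6 libraries alone, and Gbx2 did not pass in 4 of the alternatives that left out 1 library or changed the pseudocount. Markers of primitive endoderm had 5 that fell and 0 that rose of 12 (4 and 0 with median-of-ratios scaling), with sums of 698 to 781 CPM at 8 h and 496 to 523 CPM at 16 h. The defining factors were near 0: Gata6 reached 0.16 CPM in 1 library at 8 h and was listed at 0 in the other 5, and Gata4 stayed between 0.15 and 0.92 CPM. Feeder fibroblast markers summed to 7.0 to 8.34 CPM at 8 h and 5.30 to 7.31 CPM at 16 h over 8 measured genes, of which Col5a1 alone fell. Col1a1 stayed at or under 0.48 CPM and Col1a2 at or under 0.42 CPM in the 6 libraries.

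Epithelial genes that GRHL factors drive were read in these cells, which carry no GRHL2-ERT. Of 33 measured, 9 fell, 2 rose and 22 did not pass, with a median of -0.40 (9 and 4 with median-of-ratios scaling). The share that fell, 9 of 33, was close to the 25.7% of all genes. Cldn4, a tight junction protein, had 67.7, 82.2 and 79.6 CPM at 8 h and 26.7, 34.5 and 35.2 CPM at 16 h. Epcam, an epithelial adhesion protein, had 44.9, 47.6 and 44.6 CPM at 8 h and 20.7, 24.8 and 24.3 CPM at 16 h. Esrp1, an epithelial splicing factor, had 6.23, 7.29 and 5.33 CPM at 8 h and 0.91, 1.21 and 2.33 CPM at 16 h. No 16 h library of these genes reached an 8 h library. Spint2, a protease inhibitor, rose by 1.63, with 2.55 CPM in replicate 1 at 16 h against 15.5 and 14.3 CPM in the others and 1.72 to 2.50 CPM at 8 h.

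Stress-response genes were called in both directions, as were all genes tested, of which 10.9% rose and 25.7% fell. In the ATF4 programme, which answers amino acid shortage, 14 of 33 measured genes fell and 5 rose (10 and 8 with median-of-ratios scaling). Ddit4, an inhibitor of mTORC1, had 42.0, 46.1 and 47.1 CPM at 8 h and 12.1, 12 and 15.4 CPM at 16 h (-1.71 ± 0.20 SE; limma adjusted p = 2.6e-07). The regulators Atf4, Atf5, Ddit3 and Trib3 fell by 0.53, 1.52, 1.04 and 0.63. The transfer RNA synthetase Gars fell by 0.67. Enzymes and carriers of amino acid supply were found on both sides. The folate-cycle enzymes Shmt2 and Mthfd2 fell by 0.44 and 0.40, and the carriers Slc38a2 and Slc1a4 by 0.45 and 0.92. Psph, the last enzyme of serine synthesis, had 18.5, 17.8 and 12.1 CPM at 8 h and 57.8, 67.9 and 62.2 CPM at 16 h. Cth, which makes cysteine, had 59.1, 65.5 and 54.9 CPM at 8 h and 166, 232 and 229 CPM at 16 h. The transporters Slc7a3 and Slc7a5 rose by 1.31 and 1.08.

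Antioxidant genes under NRF2 had 7 that fell and 2 that rose of 19 (6 and 2 with median-of-ratios scaling). The share that rose was close to the 10.9% of all genes. Txnrd1, thioredoxin reductase, had 201, 232 and 215 CPM at 8 h and 107, 103 and 106 CPM at 16 h. Gclm, a subunit of the enzyme that limits glutathione synthesis, had 71.8, 89.3 and 83.6 CPM at 8 h and 31.8, 36.5 and 31.3 CPM at 16 h. Thioredoxin itself, Txn1, rose by 1.36 (adjusted p = 0.023). Gstm1, a glutathione transferase, had 65.0, 58.9 and 74.4 CPM at 8 h and 13.5, 16.4 and 15.2 CPM at 16 h, a change of -2.06 ± 0.17 (SE; limma adjusted p = 5.3e-10). Among p53 targets, 6 rose and 7 fell of 27 (7 and 6 with median-of-ratios scaling). The share that fell was close to the 25.7% of all genes. Cdkn1a, the cell-cycle inhibitor p21, had 167, 183 and 168 CPM at 8 h and 99.3, 83.9 and 90.0 CPM at 16 h, and the death factors Bbc3 and Bax fell by 1.17 and 1.06. Sesn1, in contrast, rose by 1.10, and Pmaip1, another death factor, was also among those that rose.

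Genes listed for the estrogen receptor and for tamoxifen had 3 that rose and 2 that fell of 16 measured (5 and 2 with median-of-ratios scaling). The receptor target Greb1 stayed between 0.33 and 0.99 CPM, and Cyp1a1 between 0.21 and 0.53 CPM, with overlapping groups. Dhcr7, a sterol reductase, had 11.2, 10.4 and 13.4 CPM at 8 h and 5.83, 8.02 and 5.91 CPM at 16 h. Enzymes of sterol and fatty acid synthesis as a list had 11 that fell and 3 that rose of 32 (9 and 4 with median-of-ratios scaling). Fasn, the fatty acid synthase, had 119, 135 and 114 CPM at 8 h and 52.4, 52.2 and 56.8 CPM at 16 h. Srebf2, the regulator of sterol synthesis, fell by 1.29, with 1.82 CPM in replicate 1 at 16 h against 9.91 and 9.57 CPM in the others. Idi1, an isomerase of the same pathway, rose by 1.94, with 37.0 CPM in replicate 1 at 16 h against 110 and 109 CPM in the others.

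Lysosome and autophagy genes had 17 that fell and 4 that rose of 34, with a median of -0.34. With median-of-ratios scaling 10 fell and 8 rose, so that imbalance depended on the scaling. Gabarapl1, a lipidated autophagosome protein, had 23.5, 27.4 and 23.8 CPM at 8 h and 11.4, 10.4 and 13.6 CPM at 16 h. Ribosome biogenesis had 17 that fell and 1 that rose of 28, and 6 and 4 with median-of-ratios scaling. Polr1a, the largest subunit of RNA polymerase I, had 71.7, 62.4 and 70.1 CPM at 8 h and 44.3, 37.8 and 32.6 CPM at 16 h. Structural ribosomal proteins had 9 that rose and 2 that fell of 40, and 20 and 0 with median-of-ratios scaling. Among all genes 10.9% rose and 25.7% fell. In 16 of the 40, at least as many windows near transcript ends were shared with other genes as were not. The assignment of tags among those 16 is uncertain. The 9 that rose include Rps27, whose separate change is uncertain, and Rpl30, which was almost untagged at 8 h.

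Signalling targets of the culture medium are set beside all genes tested, of which 10.9% rose and 25.7% fell. ERK feedback genes had 3 that rose and 0 that fell of 16 (4 and 0 with median-of-ratios scaling), and Dusp5, Fos, Fosl1 and Egr1 were not among the genes listed. Etv1, an ETS factor, had 11.6, 12.1 and 9.21 CPM at 8 h and 28.5, 18.9 and 19.5 CPM at 16 h. Targets of beta-catenin had 2 that rose and 2 that fell of 14. Notum, a feedback inhibitor that inactivates WNT proteins, had 1.53, 1.91 and 1.62 CPM at 8 h and 12.1, 14.5 and 16.6 CPM at 16 h (2.51 ± 0.32 SE; limma adjusted p = 1.3e-06). Lef1, a partner of beta-catenin, went the other way, with 7.92, 9.20 and 8.40 CPM at 8 h and 1.28, 4.01 and 3.65 CPM at 16 h. Among LIF targets, 2 rose and 2 fell of 14 (3 and 2 with median-of-ratios scaling). Socs3, the feedback inhibitor of STAT3 signalling, had 1.74, 1.18 and 1.02 CPM at 8 h and 5.47, 8.32 and 8.77 CPM at 16 h.

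The balance of the cell-cycle lists depended on the scaling. Replication genes had 9 that rose and 6 that fell of 28 (13 and 3 with median-of-ratios scaling). Mcm4, a helicase subunit, had 98.4, 65.6 and 61.9 CPM at 8 h and 206, 183 and 182 CPM at 16 h, while Mcm3, another subunit, fell by 0.53. Mitotic genes had 5 that rose and 5 that fell of 26 (10 and 3 with median-of-ratios scaling). Mki67, a proliferation marker, had 148, 153 and 192 CPM at 8 h and 113, 91.3 and 94.0 CPM at 16 h. Replication-dependent histones, whose messages normally lack a poly(A) tail, had 7 that fell and 0 that rose of 26 (5 and 0 with median-of-ratios scaling). Their share of falls was near the 25.7% of all genes, and only 2 fell with replicate 3 at 8 h left out. In 13 of the 26, at least as many windows near the 3' ends were shared with other genes as were not. The assignment of tags among those 13 is uncertain. The linker histone gene Hist1h1b had 23.8, 35.1 and 36.2 CPM at 8 h and 6.74, 10.6 and 12 CPM at 16 h. In the circadian clock, Arntl, its activator, had 2.74, 2.96 and 2.10 CPM at 8 h and 8.56, 7.41 and 10.1 CPM at 16 h. The repressors Cry1 and Cry2 fell by 1.07 and 0.99, and Per1 by 0.82, while Ciart rose by 0.81. The clock list had 2 that rose and 4 that fell of 15 (2 and 3 with median-of-ratios scaling). The share that fell was close to the 25.7% of all genes.

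Subunits of the KMT2 complexes had 6 that fell and 2 that rose of 17 (5 and 4 with median-of-ratios scaling). Among all genes 25.7% fell and 10.9% rose. With GC and length trends removed 3 fell and 3 rose, with a median of 0.07 in place of -0.24, so the direction of the list is uncertain. Kmt2a, the methyltransferase MLL1, had 66.7, 90.0 and 81.1 CPM at 8 h and 34.2, 37.9 and 35.0 CPM at 16 h (-1.12 ± 0.16 SE; limma adjusted p = 7.5e-06). Setd1a, another methyltransferase, had 28.6, 26.5 and 27.5 CPM at 8 h and 13, 14.8 and 14 CPM at 16 h. Dpy30, a small shared subunit, moved the other way, with 202, 152 and 168 CPM at 8 h and 357, 389 and 403 CPM at 16 h. Wdr5, also shared, rose by 0.69, and Kdm6a, the demethylase held with KMT2C and KMT2D, fell by 0.56.

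Several of the named genes with the largest increases were almost untagged at 8 h although most cells use them. Rpl26, a ribosomal protein gene on chromosome 11 (mm10, 68901583 to 68906989, plus strand), had 1.04, 2.13 and 0 CPM at 8 h and 73.9, 102 and 58.9 CPM at 16 h. Rpl30, another, had 1.85, 2.61 and 2.17 CPM at 8 h and 26.0, 106 and 84.1 CPM at 16 h. Ndufs5, a subunit of respiratory complex I, was listed at 0 in all 8 h libraries and had 6.13, 19 and 16.7 CPM at 16 h. In Rpl30 and Ndufs5 replicate 1 at 16 h lay far below replicates 2 and 3.

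The same pattern held for Sdhd, a subunit of respiratory complex II, with 4.64, 3.15 and 4.09 CPM at 8 h and 26.7, 115 and 130 CPM at 16 h. Pfn1, the actin-monomer binding profilin, had 4.33, 3.35 and 3.34 CPM at 8 h and 26.7, 81.7 and 83.6 CPM at 16 h. Snhg6, a host gene of a small nucleolar RNA, had 5.75, 5.98 and 3.71 CPM at 8 h and 62.5, 250 and 247 CPM at 16 h. Left out of the fit, replicate 1 at 16 h took the change of Snhg6 from 4.71 to 5.37, of Sdhd from 3.93 to 4.65 and of Pfn1 from 3.64 to 4.17. Windows near the 3' ends were shared with other genes at 47.8% in Rpl26, 27.8% in Rpl30 and 47.7% in Ndufs5, and at 0% in Sdhd, Pfn1 and Snhg6. All 6 genes changed in the same direction in the ethanol libraries of the transgenic Kmt2c-KO line, by 5.04, 3.82, 3.14, 4.81, 4.23 and 5.92 on the log2 scale for Rpl26, Rpl30, Ndufs5, Sdhd, Pfn1 and Snhg6.

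Other pairs of near-identical genes were read as sums, since the assignment of tags between copies was not tested. Plac9a was listed at 0 in the 8 h libraries and had 13.1, 9.15 and 5.27 CPM at 16 h, while its copy Plac9b had 26.4, 27.9 and 30.2 CPM at 8 h and 7.5, 9.61 and 13.7 CPM at 16 h. The sum of Plac9a and Plac9b went from 28.1 ± 1.89 CPM (SD, n = 3) to 19.5 ± 1.04 CPM. Fam177a was listed at 0 in replicates 1 and 3 at 8 h and had 17 CPM in replicate 2, and its copy 1700047I17Rik2 was listed at 0 in that replicate and had 17.9 and 15.6 CPM in the others. At 16 h all tags of that pair stood under Fam177a, with a summed ratio of 0.80. The sum of Tmem254a and Tmem254b went from 54.7 to 30.8 CPM. The Fam177a and Tmem254a pairs were chosen after their values were seen. Among genes that rose by at least 2 on the log2 scale, 15 of 66 shared 50% or more of their windows with another gene, against 264 of 7568 (3.49%) among genes not called.

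**Figure D3:**
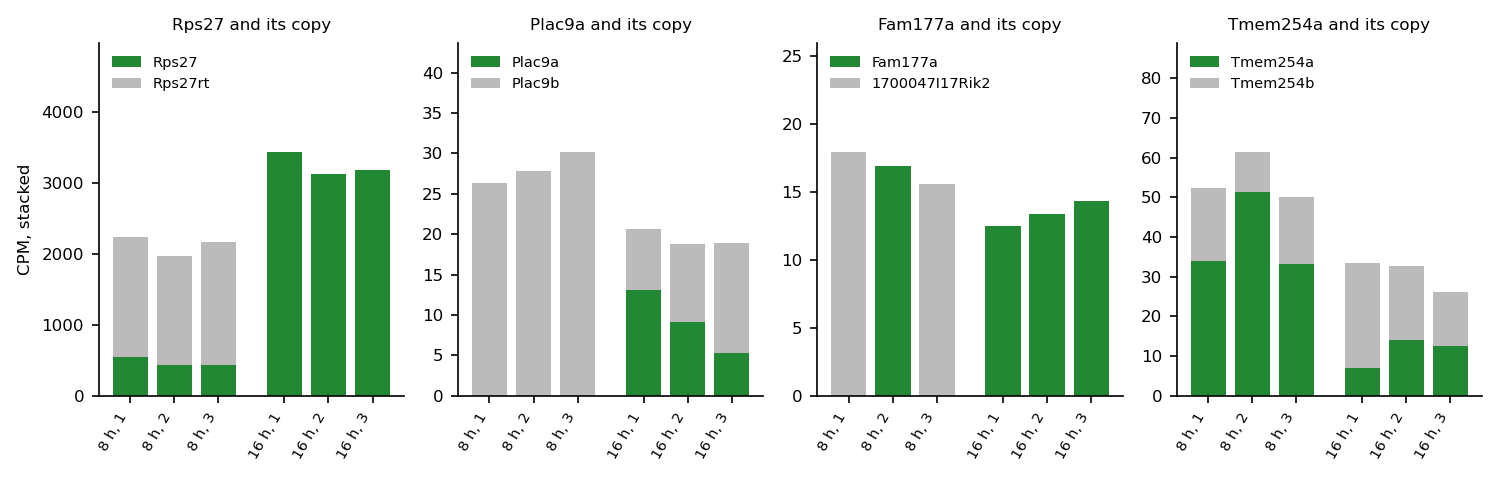
Stacked CPM of 4 genes (green) and their near-identical copies (grey) in each library, labelled by time and replicate. The Rps27 bars at 16 h hold no Rps27rt, and the Fam177a pair is all green or all grey in every library.

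Called genes differed in transcript length and GC content. Genes were put into 4 classes of like size by either property. In the class of lowest GC (31.0% to 44.8%), 17.6% of genes rose and 16.9% fell. In that of highest GC (54.5% to 72.8%), 4.45% rose and 35.3% fell. In the class with the shortest transcripts (up to 2139 bases) 15.6% rose and 17.7% fell, and in that with the longest (from 4760 bases) 5.75% rose and 35.9% fell. The part of these properties in the results of single genes was not tested. With each library's trend with GC and length removed, an alternative chosen after seeing the data, 1553 genes rose and 1921 fell of 11955, and 151 of the 164 named genes with an annotated transcript kept their direction and their call. Median changes by GC class ran the same way in the ethanol libraries of the transgenic Kmt2c-KO line, from 0.16 in the lowest to -0.42 in the highest, against 0.02 and -0.34 here.

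**Figure D4:**
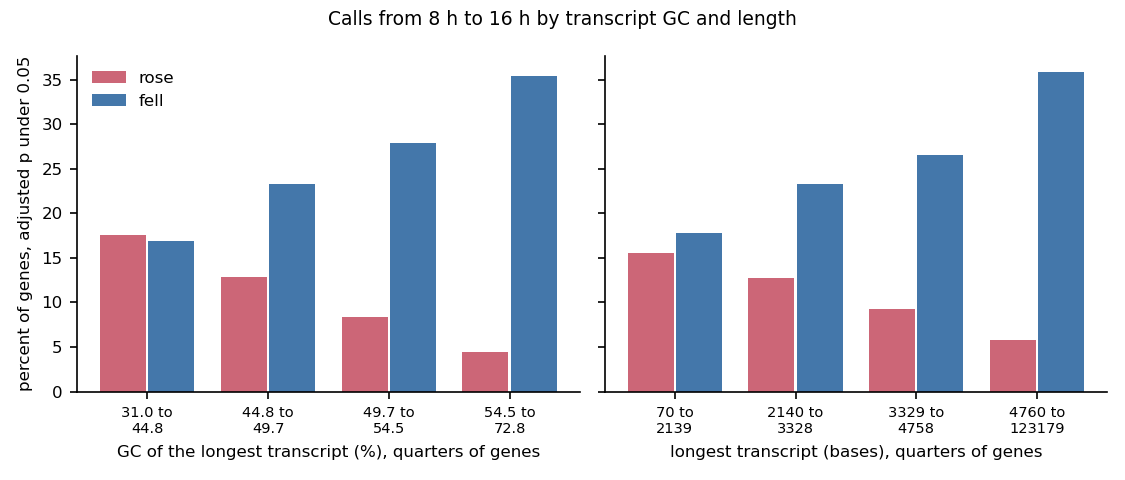
Percent of genes that rose (red) or fell (blue) from 8 h to 16 h, in 4 classes of genes by the GC content (left) or length (right) of the longest annotated transcript. Across the classes from low to high GC the share that fell goes from 16.9% to 35.3%.

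Large falls were found in single genes of other functions. Lrrc15, a leucine-rich repeat membrane protein, had 24.9, 29 and 30.8 CPM at 8 h and 4.68, 3.33 and 4.39 CPM at 16 h (-2.52 ± 0.25 SE; limma adjusted p = 2.3e-08). Chd3, a remodelling ATPase of the NuRD complex, had 42.6, 40.2 and 36.8 CPM at 8 h and 7.41, 9.0 and 6.31 CPM at 16 h. Myb, a transcription factor of progenitor cells, had 8.71, 10.4 and 14.3 CPM at 8 h and 1.82, 1.51 and 2.06 CPM at 16 h. Each group was tight beside the gap between the times. The neuronal filament gene Ina fell by 2.20, the kinase Taok3 by 2.10, and Gadd45g, a stress sensor, by 2.08. Mt1, a metallothionein that binds zinc, fell at a high level, from 2949, 2905 and 2964 CPM to 1651, 1525 and 1472 CPM (-0.92 ± 0.073 SE; limma adjusted p = 5.0e-10). Ifitm1, a membrane protein of germ cells and of the interferon response, fell from 421, 418 and 432 CPM to 179, 159 and 172 CPM.

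The same interval was compared in cells that received no tamoxifen. The ethanol libraries of the transgenic Kmt2c-KO line share no library with this comparison, and 2177 genes rose (17.5%) and 3410 fell (27.5%) in them. Of the 1352 genes that rose without the transgene, 1132 also rose there (83.7% of the former and 52.0% of the latter). Of the 3189 that fell, 2427 also fell there (76.1% and 71.2%). Calls in opposite directions were made for 1 and 2 genes. Across the 12414 genes the log2 changes had r = 0.858 with that line in ethanol, 0.852 with it in tamoxifen and 0.672 with the double KO in ethanol, as descriptions across genes, which are not independent replicates. The test of the difference from the ethanol change called 0 genes (0%) by limma, with 907 at an unadjusted p under 0.05 and 29 called when the tamoxifen 8 h libraries of the double KO were left out of the fit. Those 3 libraries had the lowest correlations within their group, 0.938 to 0.965. A p that misses the threshold does not show that the changes were equal.

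Against the tamoxifen libraries of the transgenic Kmt2c-KO line, where tamoxifen can act on GRHL2-ERT, the change from 8 h to 16 h differed for 19 genes (0.153%). It was more positive without the transgene for 12 and more negative for 7. Aldh3b2, an aldehyde dehydrogenase, was listed at 0 at 8 h without the transgene and had at most 0.20 CPM at 16 h, while it changed by -1.87 with the transgene (difference 1.99 ± 0.28 SE; limma adjusted p = 6.1e-04). Apela, which encodes a ligand of the apelin receptor, had 171, 189 and 202 CPM at 8 h and 192, 225 and 252 CPM at 16 h, against a change of 1.36 with the transgene (difference -1.12 ± 0.15; adjusted p = 6.1e-04). Utf1, a chromatin factor of pluripotent cells, fell by 0.59 without the transgene and had a change of 0.59 with it (difference -1.18 ± 0.18; adjusted p = 0.0013). Krt19, Kdf1 and Il17re, chosen after their values were seen, changed by 0.20, -0.30 and -0.15 without the transgene and by -1.54, -1.54 and -1.65 with it. The count was between 4 and 14 in place of 19 when any 1 of these libraries was left out.

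Against the double KO in ethanol, the change differed for 484 genes (3.9%), 133 more positive and 351 more negative in the transgene-free line. The groups differ in Kmt2d, in the transgene and in the agent, which cannot be told apart. Zscan4c changed by 3.48 here and by -0.21 there (difference 3.69 ± 0.32 SE; limma adjusted p = 1.9e-08). Lefty2, a Nodal antagonist, had 170, 190 and 197 CPM at 8 h and 148, 149 and 151 CPM at 16 h, a change of -0.31, against 2.07 in the double KO (difference -2.38 ± 0.15; adjusted p = 2.7e-11). Tpm1 changed by -1.56 here and by -0.15 there (difference -1.41 ± 0.14; adjusted p = 3.0e-07). Dppa3, Otx2 and Sfmbt2 fell here, by 1.33, 1.04 and 1.49, and had changes of 0.91, 0.56 and 0.70 in the double KO. Nanog had 1.00 here and 0.75 there, and its difference was not called.

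**Figure D5:**
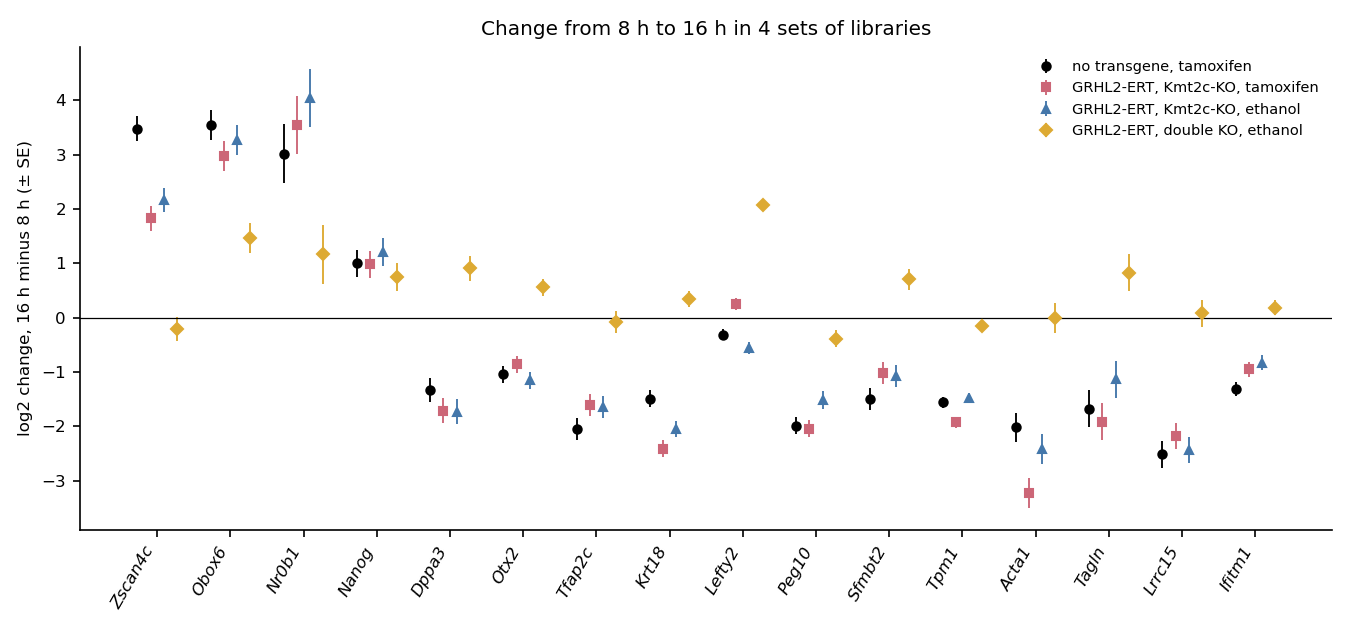
Log2 change from 8 h to 16 h with its SE for 16 genes in 4 sets of 6 libraries: the transgene-free line (black), the GRHL2-ERT Kmt2c-KO line in tamoxifen (red) and ethanol (blue), and the GRHL2-ERT double KO in ethanol (yellow). For Zscan4c, Lefty2 and Tpm1 the double KO lies apart from the transgene-free line, at -0.21, 2.07 and -0.15 against 3.48, -0.31 and -1.56.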

How the data were processed

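Tags near transcript 3' ends were counted in 30 libraries in 10 groups of 3. The authors deposited log2 values for 12428 genes; each was the log2 of CPM plus a common offset of 0.124871. Salmon, DESeq2 1.34.0 and the mm10 build are listed in the submitters' processing notes, without the step each served; counting parameters are not given in the sources used here. All library columns were matched to a sample by name, and the deposited mean and fold columns were not used.

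The offset was removed, and limma 3.58.1 (R 4.3.3) was fitted to log2(CPM + 1) (mean per group over all 30 libraries, trended and robust variance, 20 residual degrees of freedom, two-sided, Benjamini-Hochberg). A gene was tested when its mean reached 1 CPM in some group (12414 genes). Since the deposited unit is log2, limma replaced the count model that the design allowed for. Recovered depth was 8.86 to 22.0 M reads per library, and 3 reads stood for 0.172 CPM at 8 h and 0.203 CPM at 16 h on average, which covers counting error only. Between 94.6% and 97.7% of low values were whole reads within 0.05. GENCODE M21 held 11969 of the symbols (96.3%). Shared windows were runs of 50 bases in the last 400 bases of each transcript.

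Genes were named by rule: called, at least 5 CPM in the higher group, groups not overlapping, and no predicted name. The rule took the 12 largest increases and decreases, up to 4 members per list by adjusted p, 3 per difference between lines, and 7 fixed genes. Further list members were chosen after their values were seen, as were the copy pairs. The contrast, the 37 lists and the rule were chosen with earlier results of these data known. Alternatives were other pseudocounts, no filter, median-of-ratios scaling, a replicate block, the 6 libraries alone and each library left out, and, chosen after seeing the data, leaving out the double-KO tamoxifen 8 h libraries and removing GC and length trends. Deviations of same-numbered libraries correlated at 0.0122, 0.0361 and -0.0421, and the main fit did not treat the samples as paired. The labels do not say whether same-numbered libraries shared a culture. The test was checked on simulated data. The result of 1 gene is not reported here.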

Additional observations from a re-analysis of the deposited data

Results flagged for a closer look

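These are the named genes whose change from 8 h to 16 h differed between lines by a test of the difference itself (limma, Benjamini-Hochberg adjusted p under 0.05 over 12414 genes). Each value is the log2 change in the transgene-free line minus that in the other set of libraries.

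Against the GRHL2-ERT Kmt2c-KO line in tamoxifen, the differences were Zscan4c 1.65, Utf1 -1.18, Lamb1 1.07, Ncam1 -0.827, Apela -1.12 and Aldh3b2 1.99.

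Against the GRHL2-ERT double KO in ethanol, the change was more positive in the transgene-free line for 9 named genes: Zscan4c 3.69, Plac9a 2.84, Zscan4a 2.31, Obox6 2.07, Etv1 1.86, Arg2 1.49, Rpl10l 0.766, Utf1 0.666 and Calcoco2 0.565.
It was more negative for the following genes. Those below -2 were Lrrc15 -2.59, Tagln -2.5, Lefty2 -2.38, Dppa3 -2.24, Sfmbt2 -2.2 and Acta1 -2.01. Those from -2 to -1.4 were Tfap2c -1.98, Krt18 -1.83, Myb -1.77, Taok3 -1.77, Otx2 -1.6, Peg10 -1.6, Gadd45g -1.59, Ddit4 -1.59, Dab2 -1.51, Wnt3 -1.51, Ifitm1 -1.5, Acta2 -1.48, Zeb2 -1.43, Gstm1 -1.41 and Tpm1 -1.41. Those from -1.4 to -1 were Lefty1 -1.37, Fabp3 -1.27, Jun -1.25, Zfp36l3 -1.19, Chd3 -1.19, Arap2 -1.17, Srxn1 -1.15, Peg3 -1.1, Id2 -1.1, Tet1 -1.07, Ifitm3 -1.07 and Mt1 -1.01. The smallest were Gclm -0.942, Neat1 -0.895, Sel1l -0.843, Ccne2 -0.837, Cdkn1a -0.826, Mif -0.762, Klf6 -0.67, Txnrd1 -0.618 and Sox2 -0.566. The lines differ in Kmt2d, transgene and agent, and these cannot be told apart.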

How the results depend on the processing

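The 4541 genes changed from 8 h to 16 h stayed within 1.5 times that count in every alternative, 3425 to 3943 with any 1 of the 6 libraries left out. The replicate block gave 4618 genes, and for the difference from the GRHL2-ERT Kmt2c-KO line in tamoxifen 6 in place of 19; it changed no call of the 165 named genes. Libraries did not all correlate best with their own number. A pseudocount of 5 CPM gave 63 and 1 genes for the differences from that line in tamoxifen and ethanol. Without the double-KO tamoxifen 8 h libraries these were 75 and 29, and 871 for the double KO in ethanol. Leaving out 1 library gave 4 to 14, 0 to 2 and 327 to 468 for the 3 differences. Of 165 named genes 162 kept their sign in all settings. With GC and length trends removed, Dnmt3a (0.18), Fn1 (0.11) and Kmt2c (0.033) reversed, and 10 others no longer passed. With median-of-ratios scaling 11 no longer passed and 1 newly passed, and 30 of 74 list counts moved by over 1.5 times. The cause of these shifts was not tested. Depth limits genes near 0.172 CPM.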
